A study of Rattus norvegicus with 65 samples.

Results

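The collagen genes of the rat hypothalamus were taken as every protein-coding gene of the count table whose symbol has the form Col, a number, a, and a number, such as Col3a1 or Col24a1. This gave 44 genes of 27 collagen types, out of 22926 protein-coding genes and 38513 genes in all. The rule used names only and no measured value. All 44 genes passed the filter on low counts and entered the tests, which covered 21871 genes. Collagen-domain genes with other names were not included.

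The study asked how the hypothalamic transcriptome responds to Roux-en-Y gastric bypass (RYGB), to food restriction that matches its weight loss, and to the gut hormones GLP-1 and PYY3-36 that rise after it. The animals were adult male Wistar rats, 9 to 10 weeks old at the start, with no genetic alteration named for any group. Their whole hypothalamus was taken 4 weeks after the intervention, after a fast of 10 h, with 1 poly-A RNA library per animal. Per the study's methods, rats ate a high-fat diet for 6 weeks before the intervention, and afterwards could choose between high-fat and low-fat chow except where food was restricted. What the Lean animals ate before and after is not given in the labels.

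RYGB was performed in 14 rats and sham surgery in 11. A further 7 sham-operated rats were food-restricted to match the body weight of the RYGB-treated animals and are called BWM (body-weight-matched). The 6 rats of the Lean group are taken here to be the low-fat-diet-only animals that the study mentions. Medical treatment compared 8 saline-treated rats with 4 rats given PYY3-36 by minipump at 0.1 mg/kg/day plus saline injections, 5 rats given liraglutide, a GLP-1 analogue, at 0.4 mg/kg/day plus a saline minipump, and 10 rats given both agents. The libraries come from 2 experimental periods, called batch A and batch B. Batch A holds 11 RYGB, 5 sham, 7 BWM, 6 Lean, 3 saline and 5 PYY3-36 + liraglutide libraries, and batch B holds 3 RYGB, 6 sham, 5 saline, 4 PYY3-36, 5 liraglutide and 5 PYY3-36 + liraglutide libraries. BWM and Lean animals were thus in batch A only, and animals given a single hormone in batch B only.

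Collagens are secreted or membrane-bound proteins whose chains wind around each other into a helix, which is then built into fibrils, nets or filaments outside the cell. In the brain the parenchyma holds little fibrillar collagen. Fibroblasts of the meninges and of the larger vessels make the fibrillar types I and III, whereas endothelial and mural cells lay down type IV collagen, the net of the vascular basement membrane, and neurons and glia make some transmembrane and fibril-associated types.

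Library totals ranged from 20041010 to 36539941 counts, with a median of 27379945. Markers of the hypothalamus varied: 13 libraries had a hypothalamus score, the mean of log2(CPM + 1) over 10 markers, of 2.76 or less, while all others were at 3.4 or more. The same kind of score for the anterior pituitary, which lies under the hypothalamus, was 8.39 in BWM animal 5 and 4.56 in BWM animal 7, and at most 2.98 in every other library. CPM is a gene's count per 1000000 counts of its library after scaling by the trimmed mean of M-values, and results that move without these libraries are given below. Since whole tissue was measured, fewer cells of a type and less RNA per cell cannot be told apart.

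Promoter sequences, from 250 bases before to 50 bases after the start site, were found for 35 of the 44 genes in RefSeq (assembly GRCr8, not the Rnor_6.0 build of the counts). They are shown for the pair of main basement membrane chains, which lie head to head, for a fibrillar chain, and for the genes that differed after RYGB and had a window. Capitals mark exact matches, on either strand, to GGGCGG (the GC box), CCAAT (the CCAAT box) or TATAAA (the TATA box), none of which overlap each other here. All are printed 5′ to 3′ on the strand of the gene. The window of Col4a1 is chr16:84885347-84885646 on the plus strand, that of Col4a2 chr16:84885471-84885770 on the minus strand, that of Col1a2 chr4:33518307-33518606 on the plus strand, that of Col4a6 chrX:109905895-109906194 on the minus strand and that of Col8a1 chr11:56246532-56246831 on the plus strand.
Col4a1: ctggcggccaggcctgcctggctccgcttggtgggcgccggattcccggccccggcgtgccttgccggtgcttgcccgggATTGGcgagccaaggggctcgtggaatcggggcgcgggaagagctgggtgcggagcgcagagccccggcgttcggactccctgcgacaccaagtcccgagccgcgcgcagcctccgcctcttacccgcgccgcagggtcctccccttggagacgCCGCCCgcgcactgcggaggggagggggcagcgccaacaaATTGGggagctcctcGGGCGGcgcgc
Col4a2: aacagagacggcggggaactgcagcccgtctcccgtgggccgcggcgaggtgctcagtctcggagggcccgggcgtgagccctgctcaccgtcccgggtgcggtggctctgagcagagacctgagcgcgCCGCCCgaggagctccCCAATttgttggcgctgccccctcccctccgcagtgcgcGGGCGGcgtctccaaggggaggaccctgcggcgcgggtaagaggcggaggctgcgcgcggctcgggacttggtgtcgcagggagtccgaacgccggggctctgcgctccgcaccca
Col1a2: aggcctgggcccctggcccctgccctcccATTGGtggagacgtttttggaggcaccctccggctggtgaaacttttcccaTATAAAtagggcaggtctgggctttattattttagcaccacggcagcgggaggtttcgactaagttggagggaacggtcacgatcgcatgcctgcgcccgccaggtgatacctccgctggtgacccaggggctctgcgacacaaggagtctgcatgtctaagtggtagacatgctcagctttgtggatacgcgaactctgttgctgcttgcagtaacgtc
Col4a6: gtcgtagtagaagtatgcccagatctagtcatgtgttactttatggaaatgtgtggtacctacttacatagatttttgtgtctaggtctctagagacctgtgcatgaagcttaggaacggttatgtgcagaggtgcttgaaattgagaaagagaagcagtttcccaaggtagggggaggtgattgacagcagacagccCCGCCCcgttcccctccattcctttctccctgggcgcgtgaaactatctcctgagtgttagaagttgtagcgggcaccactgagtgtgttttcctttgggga
Col8a1: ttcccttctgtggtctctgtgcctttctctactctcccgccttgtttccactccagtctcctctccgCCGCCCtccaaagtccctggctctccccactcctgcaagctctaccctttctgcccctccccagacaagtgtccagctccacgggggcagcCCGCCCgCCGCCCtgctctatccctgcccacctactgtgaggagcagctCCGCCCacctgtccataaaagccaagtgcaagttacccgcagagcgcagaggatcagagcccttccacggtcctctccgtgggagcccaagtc
The Col4a1 and Col4a2 windows share 176 bases, read from opposite strands, and the 2 start sites lie 77 bases apart. The other type IV chains are paired in the same way, with 413 bases between the start sites of Col4a3 and Col4a4 and 1415 bases between those of Col4a5 and Col4a6. A GC box was in 52.6% of the 38 collagen windows and in 33.1% of all 33469 windows of that length. A CCAAT box was in 31.6% of the collagen windows against 37.5% of all, and a TATA box in 10.5% against 14.2%. These matches describe the letters of the windows only.

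The most abundant collagen messages per length were not those of the main fibrillar collagens. Col11a2, a chain of the minor fibrillar type XI collagen best known from cartilage, had a median level of 41.4 CPM per kilobase of exon over the 65 libraries. It was followed by Col9a3 (21.1 CPM per kilobase), a chain of type IX, which coats cartilage fibrils, by the basement membrane chain Col4a2 (20.2) and by Col16a1 (18.9), which is associated with fibrils. Then came the type V chain Col5a3 with a level of 12.3 CPM per kilobase, Col9a2 with 10.7, Col18a1, the source of the angiogenesis inhibitor endostatin, with 10.3, Col4a1 with 9.39, Col5a2 with 9.08, the type VI chain Col6a1 with 7.32, Col11a1 with 7.31 and Col6a2 with 6.83. As counted, the main fibrillar chains Col1a2, Col3a1 and Col1a1 were lower, with levels of 6.66, 5.52 and 4.99 CPM per kilobase. The lowest level was that of Col10a1, a chain of growth cartilage, at 0.0268 CPM per kilobase, and it was at 0 in 13 libraries.

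**Figure D1:**
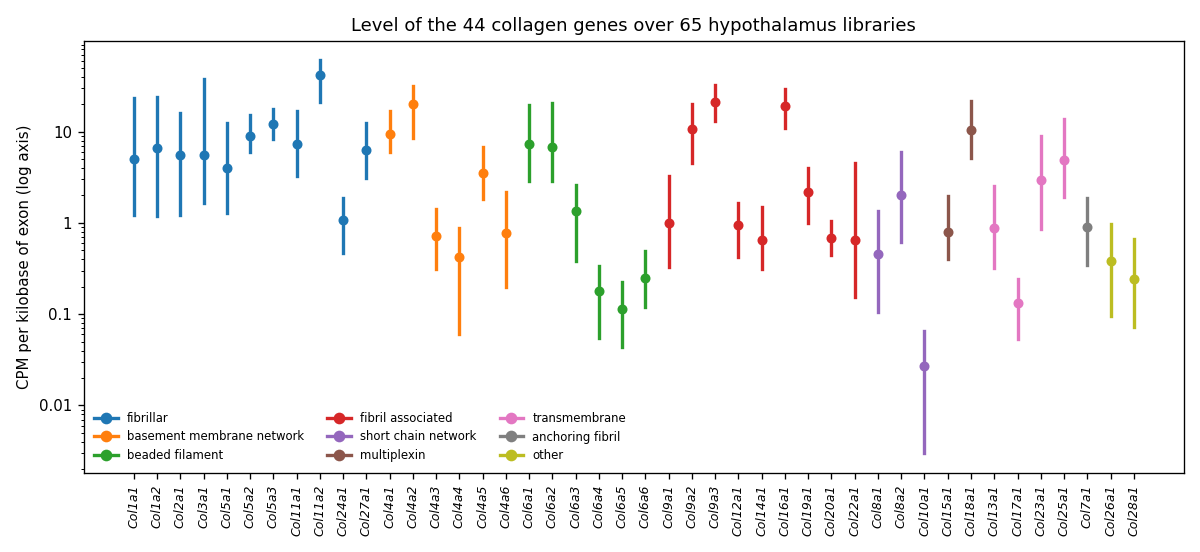
Median level of each of the 44 collagen genes over the 65 libraries in CPM per kilobase of exon (log axis), grouped by structural class, with bars from the 10th to the 90th percentile of the libraries. Col11a2 (41.4) stands at the top and Col10a1 (0.0268), whose lower bar ends at 0 and is drawn at the floor of the axis, at the bottom. The bars of Col1a1, Col1a2 and Col3a1 are much longer than those of Col4a1 and Col5a3.

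Neighbours in this order were mostly closer than the spread between animals. Col11a2 ranged from 136 to 782 CPM, and its 10th and 90th percentiles differed 2.85-fold. The same ratio was 2.16 for Col5a3 and 2.79 for Col4a1, which stayed within 32.1 to 153 CPM. For the main fibrillar chains it was 19.1 (Col1a1), 20.5 (Col1a2) and 22.9 (Col3a1). Col1a1 ranged from 4.0 to 396 CPM, a 99.1-fold range, and Col3a1 from 2.71 to 620 CPM, a 229-fold range. By structural class, the 11 fibrillar genes had a median level of 6.29 CPM per kilobase, the 6 basement membrane chains 2.13, the 9 fibril-associated genes 0.988, the 4 transmembrane genes 1.91, the 6 beaded filament genes of type VI 0.799 and the 3 short chain genes of types VIII and X 0.453. Some of these values are uncertain, because reads were divided between genes: 83.1% of the nonzero counts of Col11a2, 78.5% of those of Col15a1, 75.4% of those of Col1a2 and 50.8% of those of Col23a1 were not whole. For Col1a2 an unnamed gene model, NEWGENE_621351 on chromosome 4, followed it at 1.05 to 1.32 times its CPM in every library (r = 1.0 across libraries). The median was 31.7 CPM for this gene model and 29.7 CPM for Col1a2. If reads of Col1a2 were divided between the 2, its level is too low here, so its place in the order is uncertain. Col1a1, Col1a2, Col4a3, Col4a4, Col4a5, Col5a1, Col8a2, Col9a1, Col10a1, Col15a1, Col20a1, Col22a1, Col23a1 and Col25a1 were named after their values had been seen.

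These large ranges moved with markers of fibroblasts. A score over 18 fibroblast markers that contains no collagen gene, as mean log2(CPM + 1), correlated with Col1a1 and with Col3a1 at r = 0.97 and rho = 0.96 across the 65 libraries (permutation test, two-sided, adjusted p = 4.2e-05 for r and 4.1e-05 for rho over 220 relations; the raw p of 1e-05 is the smallest that 100000 permutations can give). Without the 2 libraries farthest from the median score, r was again 0.97 for both genes. Within batch A r was 0.98 for Col1a1 and 0.97 for Col3a1, and within batch B it was 0.94 and 0.97. For Col6a1, r was 0.90 (rho = 0.85), and for the network-forming Col8a1 it was 0.74 (rho = 0.70), with permutation adjusted p = 4.2e-05 for each. Of the 44 genes, 32 were positively related to the fibroblast score and none negatively at an adjusted permutation p under 0.05, with 22 positive within batch A and 20 within batch B.

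Several collagens, among them the abundant Col4a2 and Col11a2, moved little or not with that score. For Col4a2, r was 0.36 (rho = 0.33, permutation adjusted p = 0.0097 and 0.014), but within batches it was 0.17 (permutation adjusted p = 0.47) and 0.22 (permutation adjusted p = 0.43), so the relation did not hold within batches. For Col11a2, r was 0.28 (rho = 0.22, permutation adjusted p = 0.041 and 0.12), and within batches 0.09 and -0.03. Col24a1 had r = 0.14 (rho = 0.23, permutation adjusted p = 0.33 and 0.11). A score of mural cells, the contractile cells of vessels, gave positive relations for 34 genes, led by Col3a1 at r = 0.93, and a score of endothelium for 13 genes with 2 negative. The choroid plexus score gave 15 positive relations, with Col8a2 highest at r = 0.50. A further score, that of the anterior pituitary, was positively related to 26 genes, led by Col22a1 at r = 0.73. Within batches A and B the numbers of positive relations differed from these. They were 22 and 18 for mural cells, 22 and 10 for endothelium, 11 and 3 for choroid plexus and 10 and 7 for the anterior pituitary.

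**Figure D2:**
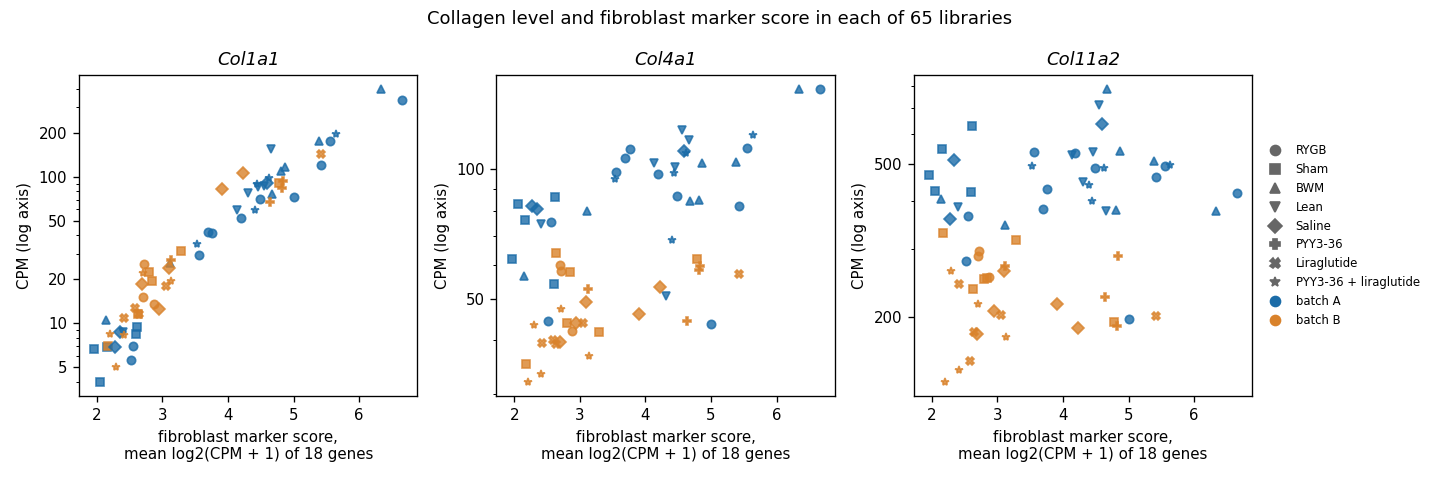
Level of Col1a1, Col4a1 and Col11a2 in each of the 65 libraries (CPM, log axis) against the fibroblast marker score (mean log2(CPM + 1) of 18 markers), with the marker shape for the group and the colour for the batch. Col1a1 follows the score closely (r = 0.97), Col4a1 less (r = 0.58), and Col11a2 hardly (r = 0.28, and 0.09 and -0.03 within batches A and B).

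Chains that form one molecule moved together to different degrees, as a description across the 65 libraries that share their depth and tissue makeup. Col1a1 and Col1a2, the chains of type I collagen, had r = 0.99 and rho = 0.98. Col1a1 and Col3a1, which are of different collagen types, had the same values (permutation adjusted p = 1.1e-05 for all 4 over 15 pairs). So a value this high was not limited to chains of 1 molecule. Col6a1 and Col6a2 reached r = 0.94 and rho = 0.93, Col4a1 and Col4a2 r = 0.93 and rho = 0.92, and Col4a5 and Col4a6 r = 0.90 and rho = 0.89, with the same permutation adjusted p of 1.1e-05. Without the 2 farthest libraries r was 0.99 for Col1a1 and Col1a2, 0.98 for Col1a1 and Col3a1, 0.93 for the type VI pair, 0.94 for Col4a1 and Col4a2 and 0.88 for Col4a5 and Col4a6. Of the head-to-head pairs, those of Col4a1 and Col4a2 (r = 0.82 in each batch) and of Col4a5 and Col4a6 (0.94 and 0.85) held within batches as well. The pair of Col4a3 and Col4a4 was looser. Its r was 0.77 over all libraries (rho = 0.66, permutation adjusted p = 1.1e-05 for both) and 0.63 without the 2 farthest libraries. Within batches A and B it was 0.84 and 0.41 (permutation p = 1e-05 and 0.031). The chains of type XI were less tied: r between Col11a1 and Col11a2 was 0.70 over all libraries (rho = 0.73, permutation adjusted p = 1.1e-05) but 0.38 in batch A (permutation p = 0.022) and 0.27 in batch B (permutation p = 0.16). For Col9a1 and Col9a2 it was 0.29 (rho = 0.33, permutation adjusted p = 0.02 and 0.0071) but -0.08 and -0.32 within batches, so that this relation did not hold there.

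RYGB-treated animals had higher levels of 3 collagens than sham-treated animals, each from a different structural class, and no collagen passed the test as lower. Col4a6, a basement membrane chain of X chromosome position 112405647 to 112768337 (Rnor_6.0, minus strand), was higher by 1.39 on the log2 scale (SE 0.437, edgeR adjusted p = 0.0289). Col8a1, which forms nets in vessel walls and under the corneal endothelium (chromosome 11, 44877690 to 45006203), was higher by 1.52 (SE 0.516, edgeR adjusted p = 0.0415). Col12a1, which binds to type I fibrils (chromosome 8, 87042820 to 87150701), was higher by 0.77 (SE 0.262, edgeR adjusted p = 0.0429). With a threshold of 1 on the log2 scale as well, Col4a6 and Col8a1 remained, 2 of 44, both higher. Over all genes tested 2.37% passed both thresholds, 2% as higher, and 13% passed the adjusted p alone, so the 3 of 44 collagens past the adjusted p were a smaller share than that of all genes, and the 2 of 44 past both thresholds a larger one, resting on 2 genes.

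In single animals the groups overlapped for all 3 genes. Col4a6 had 1.08 CPM in the lowest, 6.22 in the median and 17.2 in the highest RYGB-treated animal, against 0.494, 2.04 and 4.42 in sham-treated animals. For Col8a1 these levels were 0.827, 2.09 and 9.38 CPM after RYGB and 0.182, 0.364 and 1.35 CPM after sham surgery. Col12a1 reached 5.02, 16.9 and 41.6 CPM after RYGB and 2.95, 6.87 and 12 CPM after sham surgery. Over both batches the median RYGB-treated animal was above the highest sham-treated animal in each of the 3 genes, and the lowest lay within the sham range, but 11 of 14 RYGB-treated animals and 5 of 11 sham-treated animals were in batch A, and the fitted difference between batches was lower in batch B for all 3 genes. Within batch A this held for each gene, with RYGB medians of 6.5, 2.32 and 18.4 CPM for Col4a6, Col8a1 and Col12a1 against highest sham values of 3.27, 1.29 and 12 CPM. Within batch B it held for Col4a6 (5.57 against 4.42 CPM) and not for Col8a1 (0.902 against 1.35) or Col12a1 (6.79 against 8.58). Col8a1 is a low gene, so its values rest on few reads.

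**Figure D3:**
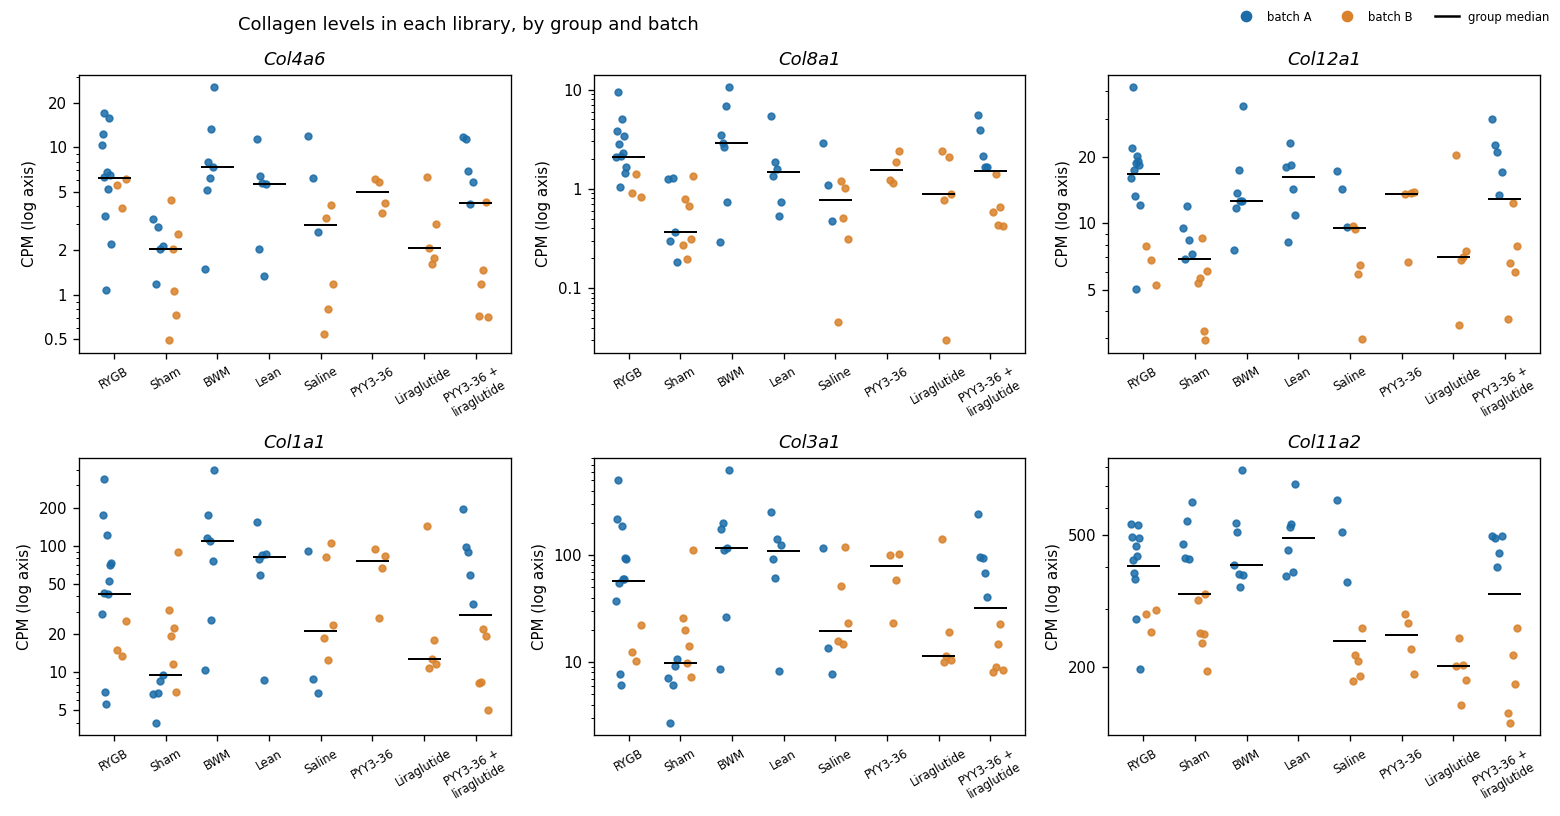
Level in each library (CPM, log axis) by group for Col4a6, Col8a1, Col12a1, Col1a1, Col3a1 and Col11a2, with colours for the experimental periods and a line at each group median. The 1 value of 0, for Col8a1, is drawn at the floor of the axis. Most RYGB points of Col4a6, Col8a1 and Col12a1 lie above the sham points, while Col3a1 spreads from 2.71 to 620 CPM and Col11a2 from 136 to 782 CPM.

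Markers of other cell types also differed between these groups, though not in the same way in both batches. All 18 fibroblast markers had a higher median in RYGB-treated than in sham-treated animals, as did 10 of 11 mural markers, 6 of 11 endothelial markers and 7 of 10 pituitary markers. So did 7 of 10 choroid plexus, 8 of 10 hypothalamus, 3 of 4 astrocyte and 3 of 8 neuron markers. For oligodendrocytes this was 0 of 5, for blood 0 of 4, for tanycytes and ependyma 1 of 4 and for striatum 1 of 6. The fibroblast score was 2.52 to 6.65 in RYGB-treated animals of batch A and 2.7 to 2.87 in those of batch B, against 1.96 to 2.62 and 2.17 to 4.78 in sham-treated animals of batches A and B. In some libraries 2 of the 18 fibroblast markers and 8 of the 10 pituitary markers were at 0. Across libraries the fibroblast score was related to Col4a6 at r = 0.69 (rho = 0.68), to Col12a1 at r = 0.70 (rho = 0.61) and to Col8a1 as above, with permutation adjusted p = 4.2e-05 for r in each. The part of these cells in the 3 differences was not tested.

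The 3 calls were sensitive to single animals and to the choice of controls. That of Col4a6 was lost without RYGB animal 12 or 14 or without sham animal 2, 4 or 5, with edgeR adjusted p from 0.00829 to 0.0635 over the 25 fits that left out 1 animal. For Col8a1 it was lost without any of RYGB animals 2, 3, 7, 9, 12 and 13 and sham animals 2, 3, 4, 5, 6, 8 and 10 (edgeR adjusted p 0.0191 to 0.0958, log2 difference 1.30 to 1.78), and for Col12a1 without RYGB animals 2, 3, 4, 7, 8, 9, 12 and 13 and sham animals 2, 3, 4, 5, 9 and 10 (edgeR adjusted p 0.0186 to 0.0903, log2 difference 0.63 to 0.87). Without the 13 libraries of low hypothalamus score, a set chosen after the scores had been seen and holding 4 sham-treated animals, all 3 calls were lost (edgeR adjusted p 0.12, 0.0941 and 0.221 for Col4a6, Col8a1 and Col12a1), and Col25a1 passed both thresholds instead. Without sham animal 11, which had the highest Col1a1 of its group, 4 collagens passed both thresholds in place of 2. With saline-treated animals as controls the log2 differences were 0.67, 1.03 and 0.26, with an edgeR adjusted p of 1 for each. Of all genes tested, 0 were higher and 1 lower past both thresholds in that comparison.

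The other collagens were spread to both sides of 0. The median log2 difference between RYGB- and sham-treated animals over the 44 genes was 0.12, against -0.02 over all genes tested, and 29 of 44 were above 0. At an unadjusted p under 0.05 there were 10 of the 44 and 6570 of all genes (30%). The 6 basement membrane chains had a median difference of 0.37 with 4 above 0, the 3 short chain genes 1.37 with 2 above 0, the 4 transmembrane genes 0.85 with 3 above 0, the 11 fibrillar genes 0.09 with 6 above 0 and the 9 fibril-associated genes -0.07 with 4 above 0. Transmembrane Col25a1, a neuronal collagen found in amyloid plaques, differed by 0.85 (SE 0.328) and Col4a5, the partner of Col4a6, by 0.78 (SE 0.292), with edgeR adjusted p of 0.0721 and 0.0618. The abundant Col11a2 differed by -0.20 (SE 0.139), Col4a1 by 0.15 (SE 0.158), Col4a2 by -0.10 (SE 0.157), Col5a3 by -0.13 (SE 0.136) and Col9a3 by -0.21 (SE 0.171), none past the test.

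Within batch A alone the picture was that of the main fibrillar chains. Col1a1, which with Col1a2 makes the fibrils of skin, bone and meninges, was at 6.73, 4.0, 6.85, 8.52 and 9.52 CPM in the 5 sham-treated animals of batch A, and at 5.63 CPM in the lowest, 52.6 in the median and 337 in the highest of the 11 RYGB-treated ones. Col3a1 was at 2.71 to 10.6 CPM (median 7.05) in those sham-treated animals and at 6.06 to 506 CPM (median 59.8) in the RYGB-treated ones. The RYGB animals with the lowest values overlapped the sham range and the others lay far above it. In batch A alone Col3a1 was higher after RYGB by 4.11 on the log2 scale (SE 1.02, edgeR adjusted p = 0.0315), Col1a2 by 3.77 (SE 0.92, edgeR adjusted p = 0.0294), Col1a1 by 3.65 (SE 0.903, edgeR adjusted p = 0.032) and Col8a2, the partner of Col8a1, by 2.88 (SE 0.806, edgeR adjusted p = 0.048). These were 4 of 44 collagens past both thresholds, against 1.35% of the genes tested in batch A.

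Batch B gave another set of values. Col1a1 was at 15.1, 13.6 and 25.6 CPM in the 3 RYGB-treated animals and at 31.2, 19.5, 11.6, 22.3, 7.05 and 90.2 CPM in the 6 sham-treated ones, whose range enclosed them. Col3a1 was at 12.5, 10.3 and 22 CPM after RYGB and at 7.20 to 111 CPM (median 17) after sham surgery. Within batch B Col3a1 differed by -1.06 (SE 0.923, edgeR adjusted p = 0.509). In this batch Col25a1 was the collagen past both thresholds, higher than after sham surgery by 1.79 (SE 0.505, edgeR adjusted p = 0.0224). It was at 9.68, 16 and 10.8 CPM after RYGB and at 0.219, 7.74, 5.72, 3.14, 1.71 and 2.84 CPM after sham surgery, which do not overlap. Compared with saline-treated animals over both batches, Col25a1 differed by 0.068 (SE 0.362) after RYGB. After sham surgery it differed from them by -0.778 (SE 0.372, edgeR adjusted p = 0.37). A rise of Col25a1 after RYGB was thus not seen against saline-treated controls. Over all genes tested in batch B 2.94% passed both thresholds.

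**Figure D4:**
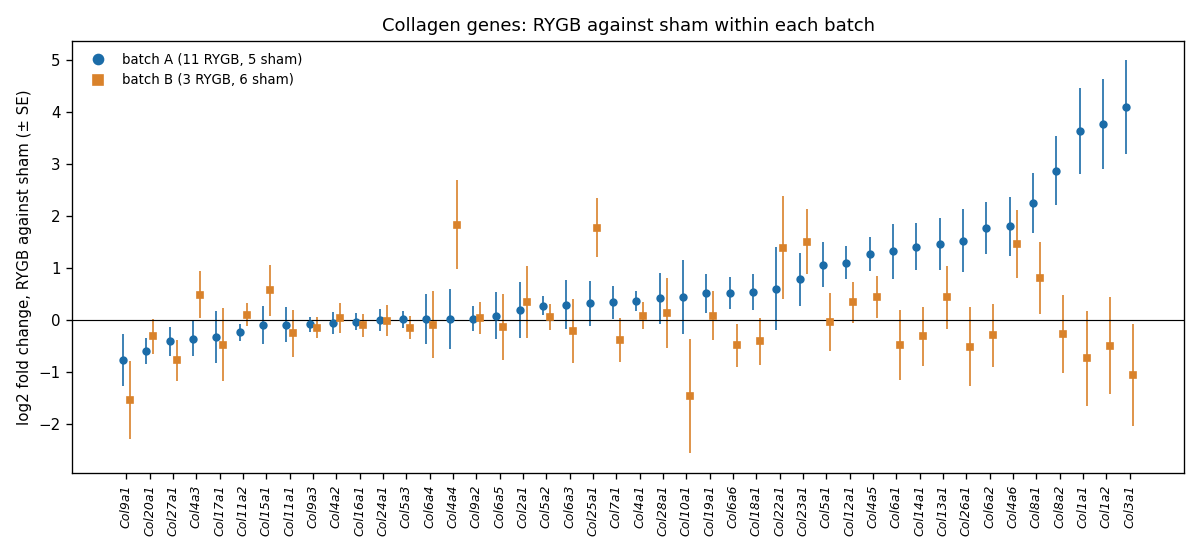
Log2 difference between RYGB- and sham-treated animals for each of the 44 collagen genes in batch A (11 against 5 animals, circles) and in batch B (3 against 6 animals, squares), with standard errors, ordered by the batch A value. At the right end Col3a1 (4.10 in batch A, -1.06 in batch B), Col1a1, Col1a2 and Col8a2 are high in batch A and below 0 in batch B, whereas Col25a1 is at 0.32 and 1.77.

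A test of the difference between the batches was made with the groups present in both. The RYGB effect on Col3a1 was 4.10 (SE 0.898) in batch A and -1.06 (SE 0.981) in batch B, and the difference of -5.16 had an edgeR adjusted p of 0.126. That of Col1a1 was 3.64 and -0.74 (edgeR adjusted p = 0.154), that of Col1a2 3.76 and -0.49 (edgeR adjusted p = 0.179), that of Col8a2 2.87 and -0.28 (edgeR adjusted p = 0.204) and that of Col25a1 0.32 and 1.77 (edgeR adjusted p = 0.442). No collagen passed, with 0.0184% of all genes past the adjusted p. At an unadjusted p under 0.05 there were 9 of the 44 collagens, 8 of them with the larger effect in batch A, and 2400 of all genes tested (11.1%). The effect was larger in batch A for 33 of 44 collagens, with medians of 0.35 in batch A and -0.10 in batch B.

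Body-weight-matched animals differed from sham-treated animals in 1 collagen, and this rested on 1 animal. Col24a1, a fibrillar collagen of developing bone (chromosome 2, 251200686 to 251436254), was at 3.08, 9.44, 8.47, 5.55, 364, 13.7 and 10 CPM in BWM animals 1 to 7. In sham-treated animals it was at 2.23 CPM in the lowest, 3.83 in the median and 13.1 in the highest, and in RYGB-treated animals at 2.7, 7.06 and 10.5. No library outside the BWM group was above 15.8 CPM. BWM animal 5 thus stood alone and the other BWM animals lay within the range of the sham-treated animals or just above it. The fitted difference between BWM and sham-treated animals was 2.93 (SE 0.493, edgeR adjusted p = 0.00117) and fell to 0.09 without BWM animal 5 (edgeR adjusted p = 0.928), the animal with the highest pituitary score of 8.39. Over all genes tested 0.274% passed both thresholds in this comparison.

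**Figure D5:**
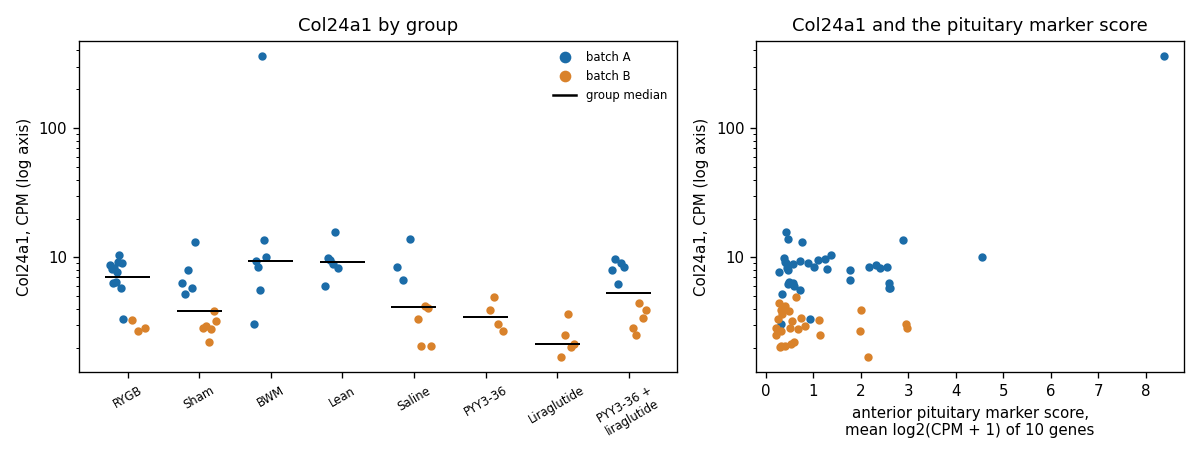
Level of Col24a1 in each library (CPM, log axis) by group with a line at each group median (left), and against the anterior pituitary score, the mean log2(CPM + 1) of 10 markers (right), coloured by batch. BWM animal 5 stands at 364 CPM with a score of 8.39, and the other 64 libraries lie at or below 15.8 CPM.

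A lncRNA gene before Col24a1 had the same single high library. LOC102549633 ends 18333 bases before the start of Col24a1 on chromosome 2 (251176403 to 251182353), and it had 21.8 CPM in BWM animal 5 and at most 1.09 CPM in every other library. Its median was only 0.288 CPM, and some libraries had no count of it. Among the genes tested other than the collagens it was the gene most like Col24a1 across the 65 libraries (r = 0.90 of log2(CPM + 1), and 0.80 without BWM animal 5). Ints6 followed (0.83, and 0.62 without that animal). The relation of Col24a1 to the anterior pituitary score was r = 0.60 and rho = 0.28 (permutation adjusted p = 0.0027 and 0.045), and r fell to 0.14 without the 2 libraries farthest from the median score, so it rests on those. With the collagens again left out, the genes most similar to Col1a1 were NEWGENE_621351 (0.99), Cpz (0.97), Bgn (0.96), Colec12 (0.96) and the fibroblast marker Slc22a6 (0.96). For Col4a1 they were Arhgap17 (0.92), Ltbp4 (0.91), Hdac7 (0.90), Polm (0.90) and Dmpk (0.89). The r of all these similar genes span both batches and were not computed within batches, though Col4a1 and Col24a1 themselves differed between them.

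The other collagens of BWM animals lay on the high side without passing the test. Of the 44 genes, 35 were above 0, with a median log2 difference from sham-treated animals of 0.48 against 0.00 over all genes, and 12 had an unadjusted p under 0.05, all higher, against 2695 of all genes (12.3%). Without BWM animals 5 and 7, the libraries high in pituitary markers, the median was 0.12, with 34 above 0. Then 0 collagens had an unadjusted p under 0.05, and the share of all genes was also lower (945, 4.34%). The largest after Col24a1 were Col1a2 (2.28, SE 0.953), Col3a1 (2.26, SE 1.01) and Col1a1 (2.14, SE 0.922), with edgeR adjusted p of 0.295, 0.337 and 0.312. Col1a1 was at 10.5, 116, 176, 110, 25.9, 76.2 and 396 CPM in BWM animals 1 to 7, so that the lowest of them was still above the highest sham-treated animal of batch A, at 9.52, but within the range of those of batch B. All 18 fibroblast markers also had a higher median in BWM than in sham-treated animals, and the fibroblast score of BWM animals ran from 2.15 to 6.33. Set against the sham-treated animals of batch A alone, Col3a1 (4.69, SE 1.07, edgeR adjusted p = 0.0338), Col1a2 (4.26, SE 0.968, edgeR adjusted p = 0.0338), Col1a1 (4.23, SE 0.956, edgeR adjusted p = 0.0325) and Col24a1 passed both thresholds, against 1.25% of all genes. The same 5 sham-treated animals stand behind all batch A comparisons with sham surgery.

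Between RYGB-treated and BWM animals, Col24a1 passed as lower after RYGB, with a log2 difference of -2.96 (SE 0.428, edgeR adjusted p = 2.63e-05), and this value was -0.12 without BWM animal 5 (edgeR adjusted p = 0.852). The share of all genes past both thresholds was 0.274%. The median difference of the 44 collagens was -0.24, against -0.03 over all genes, and 11 were above 0. Without the 2 BWM libraries high in pituitary markers it was -0.04, with 20 above 0. Without BWM animal 1 and without BWM animal 4, 2 collagens passed in place of 1. Lean animals differed from sham-treated animals in 0 of 44 collagens by edgeR and 0 by DESeq2, and 0% of all genes passed by edgeR. At an unadjusted p under 0.05 there were 0 collagens, against 2674 of all genes (12.2%). Col11a1 came nearest in that comparison, higher in Lean animals by 0.63 (SE 0.328, edgeR adjusted p = 0.425), with 80.6 to 235 CPM (median 118) against 34.1 to 140 CPM (median 78) in the sham-treated animals of batch A, to which all Lean animals belong. Against those 5 sham-treated animals alone, Lean animals had 32 of 44 collagens above 0 and a median log2 difference of 0.37. At an unadjusted p under 0.05 there were 9, all higher, against 2848 of all genes (13.1%), and 0 passed both thresholds. Col3a1 then differed by 4.0 (SE 1.04) and Col1a1 by 3.47 (SE 0.931), with edgeR adjusted p of 0.168 and 0.171.

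No collagen passed the test in animals treated with PYY3-36, liraglutide or both, compared with saline-treated animals. The shares of all genes past both thresholds were 0%, 0% and 0.00457%. PYY3-36-treated animals had 39 of 44 collagens above 0, with a median log2 difference of 0.29 against -0.01 over all genes. At an unadjusted p under 0.05 there were 6, all higher, and 1649 of all genes (7.54%). They included Col8a2 (1.88, SE 0.741), Col12a1 (0.86, SE 0.367), Col6a1 (1.24, SE 0.593) and Col8a1 (1.42, SE 0.691), each with an edgeR adjusted p of 0.652, and DESeq2 called 0 collagens. Col3a1 was at 100, 23.4, 58.1 and 102 CPM in the 4 PYY3-36-treated animals, and at 7.73 CPM in the lowest, 19.5 in the median and 119 in the highest saline-treated animal, whose range enclosed all 4. The fibroblast score was 3.12 to 4.84 (median 4.73) in PYY3-36-treated animals and 2.7 to 4.22 (median 3.1) in the saline-treated animals of the same batch, and its part in the collagen values was not tested.

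Liraglutide-treated animals had 21 of 44 collagens above 0 and a median log2 difference of -0.01, and animals given both agents had 16 above 0 and a median of -0.08. For both agents the batches differed in sign, with 28 of 44 above 0 and a median of 0.20 in batch A alone, and 12 of 43 above 0 and a median of -0.24 in batch B alone. In batch B alone 5 of these had an unadjusted p under 0.05, all lower, against 1969 of all genes (9.55%). In batch A alone there were 0, against 180 of all genes (0.827%). Over both batches 0 collagens in either comparison had an unadjusted p under 0.05, against 456 (2.08%) and 554 (2.53%) of all genes, and DESeq2 called 0. Col3a1 was at 142, 10.1, 11.3, 19 and 10.4 CPM in the 5 liraglutide-treated animals, so that 1 animal stood far above the others. In animals given both agents it ran from 40.8 to 242 CPM (median 93.8) in batch A and from 8.08 to 22.9 CPM (median 9.08) in batch B, which do not overlap. Sham- and saline-treated animals, the 2 control groups, differed in 0 of 44 collagens, with 0.00914% of all genes past both thresholds. Of the 44, 18 were above 0, and 1, Col25a1, had an unadjusted p under 0.05 (-0.78, SE 0.372, edgeR adjusted p = 0.37), against 2812 of all genes (12.9%).

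Between the experimental periods the collagens differed by more, in the median, than in any of the treatment comparisons. All 44 had a lower estimate in batch B than in batch A, with a median log2 difference of -1.13 and a range from -1.88 (Col5a1) to -0.26 (Col20a1). Of the 44, 33 were lower at an edgeR adjusted p under 0.05, against 21.4% of all genes, and 24 also passed a log2 difference of 1, against 4.42%. Col1a1, Col1a2 and Col3a1 were among the 11 that did not pass. The estimate is 1 shift shared by all groups, and for Col1a1 the groups went different ways. In sham-treated animals its median was 6.85 CPM in batch A and 20.9 CPM in batch B, and in saline-treated animals 8.8 and 23.8. After RYGB it was 52.6 and 15.1 CPM, and with both agents 88.8 and 8.43. Libraries of batch A were prepared to a size of 285 bp and those of batch B to 335 bp, and anything else that differed between the periods cannot be told apart from this. Collagen messages were also long: their median exon length was 5760 bases against 2910 for all protein-coding genes tested, and 32 of 44 were above the upper quartile of 4760 bases.

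Genes that build, anchor and cut collagen were taken from a list ordered by role. After RYGB, 3 of 29 genes of assembly and processing were higher than in sham-treated animals and 2 lower at an edgeR adjusted p under 0.05. Higher were Plod2 (0.93), which hydroxylates lysine for cross-links, Adamts2 (1.2), which removes the amino-terminal propeptide, and Sec31a (0.29), part of the coat that carries procollagen out of the endoplasmic reticulum, and lower were the propeptidase Adamts3 (-1.26) and the prolyl isomerase Ppib (-0.31). Of 11 receptors, 3 were higher and 0 lower: Itga1 (1.72, edgeR adjusted p = 0.0132), the collagen-binding integrin chain, its partner Itgb1 (0.45) and the inhibitory receptor Lair1 (0.85). Of 9 genes of breakdown and its inhibitors, Mmp14 (1.44, edgeR adjusted p = 0.021), a membrane-bound collagenase, and Timp2 (0.79, edgeR adjusted p = 0.00237), an inhibitor that also binds it, were higher and none lower. For comparison, 13% of all genes passed the adjusted p in either direction. Against saline-treated controls, 0 of all genes tested were higher after RYGB at the adjusted p and 1 was lower. None of the genes of these lists named as higher after RYGB thus passed against that control group.

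Among 22 partner proteins of the matrix, 4 were higher and 0 lower after RYGB, where 13% of all genes passed the adjusted p. They were thrombospondin Thbs1 (1.82, edgeR adjusted p = 0.00228) and the laminin chains Lama2 (0.77), Lama4 (0.55) and Lamc1 (0.43), which lie beside type IV collagen in basement membranes. Dcn, Fmod, Lamc3 and Lum, also in this list, are in the fibroblast marker list too. Of 11 genes of transforming growth factor beta signalling, the inducer of fibrillar collagen genes, the co-receptor Tgfbr3 (1.21, edgeR adjusted p = 0.00613) was higher and none lower. In BWM animals Thbs1 (2.18, edgeR adjusted p = 0.0118) was the gene of these lists past the adjusted p compared with sham-treated animals. Of all 21871 genes tested, 68 were higher and 2 lower at that threshold in BWM animals. Median log2 differences from sham-treated animals over the lists were 0.16 after RYGB and 0.31 in BWM animals for assembly and processing, 0.45 and 0.62 for receptors, 0.74 and 0.90 for breakdown and inhibitors, and 0.57 and 0.99 for partner proteins. In the other 6 comparisons in which these lists were read (Lean with sham, RYGB with BWM, the 3 hormone groups with saline, and sham with saline, over both batches) 0 of their genes passed the adjusted p by edgeR. Few of all genes did so either. Higher and lower were 2 and 73 for RYGB with BWM, 0 and 1 for both agents with saline, and 0 and 3 for sham with saline. The remaining comparisons had 0 and 0.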

How the data were processed

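Whole hypothalamus of 65 rats was sequenced as stranded poly-A RNA with single-end reads of 75 nt, in 2 experimental periods with library sizes of 285 and 335 bp. The deposited values are estimated counts per gene: the authors trimmed reads with cutadapt (1.16 and later versions), aligned them to Rnor_6.0 with STAR 2.7.2b and counted them on the reverse strand with featureCounts 1.6.4, splitting multi-mapping and overlapping reads into fractions (versions per the submitters' processing notes and the study's methods). Of the nonzero values, 30.3% were not whole (tolerance 1e-06), and all were rounded before testing. Library totals of 20041010 to 36539941 set the precision, which for low genes is limited by counting error.

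Genes passing filterByExpr (minimum count 10, minimum total 15) were scaled by TMM and tested with edgeR 4.0.16 (quasi-likelihood, robust) in R 4.3.3, with group and batch as terms over all 65 libraries. P-values were adjusted by Benjamini-Hochberg over the 21871 genes tested, and a gene was called at an adjusted p below 0.05 with an absolute log2 difference above 1. The difference of the RYGB effect between batches was tested on the 4 groups present in both. CPM values are TMM-scaled. Correlations used log2(CPM + 1), 100000 two-sided permutations (scipy 1.17.1) and adjustment over all relations of the family. Alternatives were RLE scaling, no filter, DESeq2 1.42.0, no batch term, the compared groups alone, single batches, saline controls, a replicate block and leaving out each animal. The model was tested on simulated data.

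Groups came from the sample labels. Each library is from 1 animal. Genes named with values were those past the adjusted p in any comparison, the 12 highest in CPM per kilobase, Col3a1 and Col24a1, with any others said to be chosen later. The collagen genes, gene lists and marker lists were chosen with earlier results of these data known.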

Additional observations from a re-analysis of the deposited data

Results flagged for a closer look

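For the 17 collagen genes chosen by the naming rule, 102 sets of values of 4 to 10 animals, each a gene in a group, were searched for a single value far from the rest by Dixon's criterion, which chance meets in about 1 of 20 such sets. It was met by 3 sets. Col24a1 was at 364 CPM in BWM animal 5, and at most at 13.7 CPM in the other BWM animals. Col3a1 was at 142 CPM in liraglutide-treated animal 1 and at 10.1 to 19 CPM in the other 4. Col12a1 was at 6.69 CPM in PYY3-36-treated animal 2, below the other 3 animals of that group, whose highest value was 13.9 CPM.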

How the results depend on the processing

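The number of collagens past both thresholds between RYGB- and sham-treated animals was 2, and it was 1 with no filter on low counts, 11 with no batch term, 4 in batch A alone, 1 in batch B alone, 1 without the libraries low in hypothalamus markers (chosen after seeing the data), 0 with saline-treated controls and 0 to 4 when each animal was left out. By DESeq2 it was 3 (Col8a2, Col8a1 and Col4a6). The counts over all genes moved too. Higher and lower past both thresholds were 437 and 81 in the main fit, 480 and 148 with no filter and 974 and 213 with no batch term. They were 624 and 32 without the libraries low in hypothalamus markers, 0 and 1 with saline-treated controls and 556 and 113 by DESeq2. Between BWM and sham-treated animals it was 1, and it was 20 with no batch term, 4 in batch A alone, 0 in a fit of the 2 groups alone, 0 without the 2 libraries high in pituitary markers (chosen after seeing the data) and 0 to 4 when each animal was left out: 0 without BWM animal 5, 4 without BWM animal 1 and 2 without sham animal 1. DESeq2 called Col4a5 and not Col24a1 there (0.05, DESeq2 adjusted p = 0.952). Over all genes, higher and lower were 59 and 1 in the main fit, 872 and 48 with no batch term and 246 and 27 in batch A alone. They were 0 and 0 in the 2 groups alone, 1 and 0 without the libraries high in pituitary markers and 160 and 8 by DESeq2. Between RYGB-treated and BWM animals it was 1, and it was 0 in the 2 groups alone, 0 by DESeq2, 2 without the libraries low in hypothalamus markers, 0 without those high in pituitary markers and 0 to 2 when each animal was left out. Over all genes, 60 were lower in the main fit, 0 in the 2 groups alone and 45 by DESeq2. Without the libraries low in hypothalamus markers 78 were lower, and without those high in pituitary markers 1. Between Lean and sham-treated animals it was 0, and 3 with no batch term, where 531 of all genes were higher and 70 lower. The cause was not tested. The counts were 0 under every alternative for PYY3-36, liraglutide and their combination against saline, for sham against saline and for the difference between batches. Of all values, 542 were close to those reported, 57 kept the direction without passing the test and 44 moved, and no gene that had been called changed sign. Medians over the collagens, which were not tested, crossed 0 in 5 comparisons: RYGB against sham in batch B alone (-0.09), sham against saline in batch B alone (0.09), PYY3-36 against saline with no batch term (-0.10), the combination against saline in batch A alone (0.20) and 6 other settings, and liraglutide against saline, at -0.01, in 12 settings.

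With the replicate number as a block, the counts were 4 for RYGB against sham, 0 for BWM against sham and 0 for RYGB against BWM. Over all genes, higher and lower were then 384 and 19, 2 and 0, and 0 and 1 in these comparisons. Deviations of same-numbered libraries of different groups had a median correlation of 0.00885 over 171 pairs (-0.447 to 0.475), with 55 above 0.1. Libraries of unequal numbers were not compared in this way, so these values cannot decide whether equal numbers pair animals. Under the block Col4a6 differed by 1.15 (edgeR adjusted p = 0.149), Col8a1 by 2.14 (0.0306), Col12a1 by 0.99 (0.0435) and Col24a1 by 1.76 and -1.64 (0.252 and 0.317). Depth limits the lowest genes most, such as Col10a1 and Col4a4.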
